A study of Homo sapiens with 8 samples.

Results

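The genes described here are 9 interferon-stimulated genes, IFIT1, IFIT2, IFIT3, OAS1, OAS2, OAS3, MX1, IFI6 and ISG15, chosen by gene symbol out of 34164 genes listed in at least 1 of the 2 deposited expression tables. All 9 are listed in both tables. RNA was sequenced in 8 libraries, 1 per condition, from Kyse510, an established human esophageal squamous carcinoma cell line. In the inhibitor arm, cells were given vehicle, 7 µM SP2509 (an inhibitor of the histone demethylase LSD1), 7 µM UNC0642 (an inhibitor of the histone methyltransferase G9a), or the combination, for 2 days. The dose of each inhibitor in the combination is not stated separately, and 7 µM of each was assumed. In the knockdown arm, stable lines carrying a doxycycline (Dox)-inducible shRNA against LSD1 (shLSD1) or G9a (shG9a) were obtained as stable clones under puromycin for 14 days and then kept without Dox or given Dox for 2 days. Each line carries 1 hairpin, delivered by lentivirus, and the uninduced library of a line served as the control of the induced one. No library with Dox and a nonsilencing hairpin was analysed here, so an effect of Dox and an effect of the hairpin cannot be told apart.

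Interferon-stimulated genes are part of the cell's antiviral programme. Interferons bind receptors that activate the kinases JAK1, JAK2 and TYK2, and type I and type III interferons act through transcription factors, STAT2 and IRF9 among them, that bind a DNA element called the interferon-stimulated response element (ISRE) near the start of these genes. Interferon gamma acts mainly through a different element, the gamma-activated site (GAS). Many of the genes can also be turned on directly by interferon regulatory factors (IRFs) when double-stranded RNA is sensed. LSD1, encoded by KDM1A, removes methyl groups from histone H3, and G9a, encoded by EHMT2, adds them, and both are generally known for keeping genes silent.

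The ISRE core was searched as GAAA followed by any 2 bases and a second GAAA, and the GAS core as TTCNNNGAA, on both strands, in windows from 250 bases before to 50 bases after each gene start in RefSeq (GRCh38.p14). Windows were held for 7 of the 9 genes, with 10 starts in all. The ISRE core lay in 8 of these 10 windows and in 6 of the 7 genes (IFIT1, IFIT3, ISG15, MX1, OAS3 and IFI6), compared with 3.57% of all 35116 windows and 4.38% of 27305 genes. The GAS core lay in 2 of the 10 windows (OAS1, and 1 of the 3 starts of MX1), compared with 7.66% of all windows, and the single OAS1 window held no ISRE core. The following stretches, each read on the strand of its gene with the ISRE cores in capitals, show how the element is placed in genes with different responses below. The IFIT1 stretch (chr10:89392487-89392549) and the IFIT3 stretch (chr10:89327821-89327904) are on the plus strand, as is the ISG15 stretch (chr1:1013364-1013419), and the IFI6 stretch (chr1:27672256-27672368) is on the minus strand. By GENCODE release 44, the stretch of IFI6 lies before its gene, those of IFIT3 and ISG15 lie within the span of their genes but in no exon, and that of IFIT1 reaches 4 bases into the first exon.
IFIT1: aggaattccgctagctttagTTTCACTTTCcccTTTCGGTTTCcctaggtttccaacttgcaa
IFIT3: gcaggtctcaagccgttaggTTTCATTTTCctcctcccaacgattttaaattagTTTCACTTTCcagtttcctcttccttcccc
ISG15: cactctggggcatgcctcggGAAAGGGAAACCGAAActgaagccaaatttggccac
IFI6: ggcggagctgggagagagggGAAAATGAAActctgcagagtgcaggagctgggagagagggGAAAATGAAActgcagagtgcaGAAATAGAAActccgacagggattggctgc

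Counted from the gene start, the cores of IFIT1 lie at positions -116 and -103, and both are read on the opposite strand. IFIT3 has its cores at positions -156 and -122 from the first of its starts, again on the opposite strand. The cores of ISG15, at -113 and -107, overlap and share GAAA. IFI6 holds 3 cores, at -156, -115 and -93, and the sequence around the first is nearly repeated around the second. A match shows only that these letters are present in the window.

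Expression was given as FPKM (fragments on a gene, scaled by gene length and library size), and the reads behind each value were estimated from it. Library totals ranged from 15662035 reads with vehicle to 17889466 with UNC0642. Ratios of FPKM are given with a 95% exact interval that covers counting error only. Fold changes on the log2 scale were computed from FPKM + 1, so changes of genes with little expression are understated. A gene was tested where it had at least 1 FPKM in at least 1 of 2 libraries, and it was called higher or lower at a fold of at least 1.3 with an unadjusted p below 0.05 when the reads were set against the library totals in an exact binomial test (two-sided). This test compares 2 libraries and not 2 conditions, since no condition was replicated. A gene below 1 FPKM in the control was tested only where the treated library reached 1 FPKM, so it could be called only as higher. The 2 tables were normalised separately, so levels are set side by side only within the inhibitor arm or within the knockdown arm. In these bulk samples, more cells expressing a gene and more RNA per cell cannot be told apart.

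The knockdowns were checked on their targets. KDM1A had 26.0 FPKM in the shLSD1 line without Dox and 6.29 with Dox, and EHMT2 had 7.85 FPKM in the shG9a line without Dox and 4.76 with Dox. EHMT2 had 11.1 FPKM with vehicle and 5.38 with the combination, and was called lower there. KDM1A was called higher in the induced shG9a line (26.4 to 35.8 FPKM, ratio 1.36), a call lost under centring and TMM scaling, which are explained below. The keratin gene KRT5 and the squamous regulator TP63 were present in all 8 libraries (at least 74.6 and 18.3 FPKM), as is usual for squamous cells. KRT14 and KRT6A, also squamous keratins, had 1.93 and 0.676 FPKM with vehicle. The summed level of 6 squamous markers (these 4, DSG3 and SOX2) was 555 FPKM in vehicle, 904 in SP2509, 411 in UNC0642 and 217 in the combination. With the combination KRT14 and KRT6A were called higher and the other 4 lower, and SOX2 had 18.3 FPKM in vehicle, 0.313 in SP2509, 4.94 in UNC0642 and 0.636 in the combination. The sum was 252 FPKM without and 146 with Dox in the shLSD1 line, and 240 and 394 in the shG9a line. The squamous markers thus moved in the same libraries as the 9 genes described below, and their part in those results was not tested. The summed level of the leukocyte markers PTPRC, CD3E, CD14, CD68 and LYZ ranged from 0.0365 to 2.78 FPKM, and most of the highest sum, in the induced shLSD1 line, was CD14 at 2.67 FPKM. PTPRC, which marks leukocytes in general, did not exceed 0.0425 FPKM in any library, nor CD68 0.0522 FPKM, nor LYZ 0.269 FPKM. The part of CD14 expression in the results of the shLSD1 line was not tested. Fibroblast markers summed to between 3.08 and 6.68 FPKM, with the highest sum for SP2509. The 3 endothelial markers summed to 3.56 FPKM with vehicle and 12.4 with the combination, and to 5.54 without and 14.5 with Dox in the shLSD1 line. Most of this was CDH5, a cadherin of endothelial junctions, which was called higher in both comparisons (3.28 to 11.8 and 5.21 to 14.0 FPKM), in the 2 libraries where the 9 genes had their highest sums within each arm. PECAM1, another defining marker, was listed at 0 with vehicle and with SP2509 and had at most 0.569 FPKM elsewhere, and VWF had at most 1.42 FPKM. The part of endothelial transcripts in the results was not tested.

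The 9 genes as a group were lowest with vehicle and highest with the combination among the inhibitor libraries. Their summed level was 35.4 FPKM in vehicle, 63.4 in SP2509, 53.4 in UNC0642 and 150 in the combination. In the knockdown arm it was 68.6 FPKM in the shLSD1 line without Dox and 130 with Dox, and 67.5 in the shG9a line without Dox and 87.3 with Dox. OAS3 and IFI6 were called higher in all 5 comparisons with a control. IFIT1 and MX1 were called in 0 of the 5. Each of the other genes was called higher in at least 2 of them, and IFIT2 was also called lower in the induced shG9a line.

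**Figure D1:**
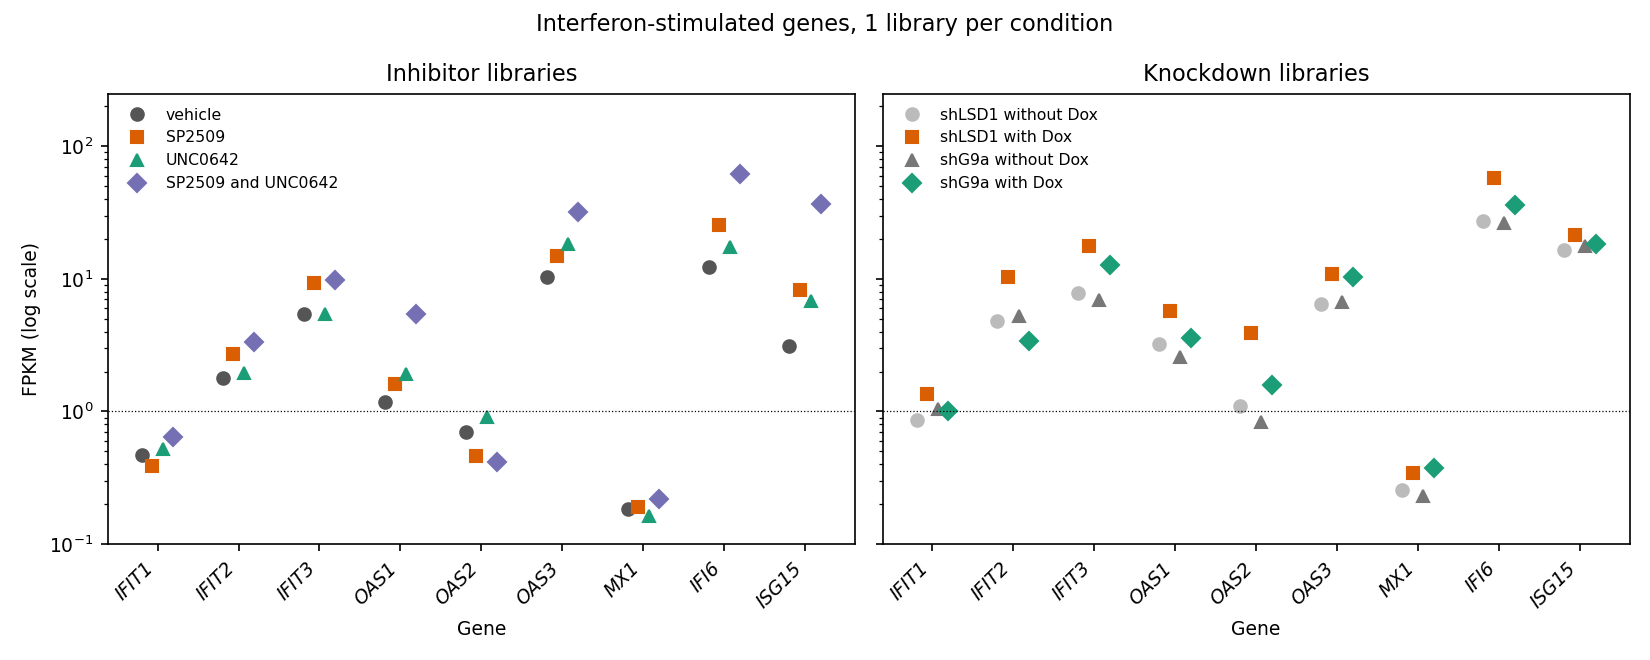
Level of each gene (FPKM, log axis) in the 4 inhibitor libraries (left) and the 4 knockdown libraries (right), with 1 point per library and a dotted line at 1 FPKM. ISG15, IFI6, OAS1 and OAS3 were highest with the combination, at 36.9, 61.4, 5.42 and 32.2 FPKM, whereas OAS2 was at its lowest there, at 0.416 FPKM.

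SP2509 was accompanied by higher levels of 5 of the 6 genes tested and by lower levels of 0, in a library where 18.0% of all 13342 genes tested were called higher and 37.3% were called lower. The 5 genes were IFIT2, IFIT3, ISG15, OAS3 and IFI6. UNC0642 was accompanied by higher levels of 4 of the 6 tested, namely ISG15, OAS1, OAS3 and IFI6, compared with 15.6% of 13244 genes called higher and 13.8% called lower. With the combination, 6 of 6 tested genes were called higher (IFIT2, IFIT3, ISG15, OAS1, OAS3 and IFI6), compared with 28.9% of 13907 genes called higher and 28.9% called lower. These 3 comparisons share the vehicle library. IFIT1, MX1 and OAS2 were below 1 FPKM in every inhibitor library and so are not in these counts. Of them, OAS2 had a ratio to vehicle of 0.650 with SP2509 (95% interval 0.444 to 0.947) and 0.592 with the combination (0.396 to 0.876). Its ratio with UNC0642 was 1.29 (0.944 to 1.78).

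Dox in the shLSD1 line was accompanied by higher levels of 6 of 8 tested genes (IFIT2, IFIT3, OAS1, OAS2, OAS3 and IFI6) and lower levels of 0, where 22.4% of 12970 genes were called higher and 10.3% were called lower. In the shG9a line, 4 of 8 tested genes were called higher (IFIT3, OAS2, OAS3 and IFI6) and 1 was called lower (IFIT2), where 29.9% of 13080 genes were called higher and 15.7% lower. OAS2 reached 1 FPKM there only in the induced library, so it could be called only as higher. The 4 genes called higher in the shG9a line were all among the 6 called higher in the shLSD1 line. The overlap of the calls of all genes was not counted, so this overlap has no share beside it. Between the 2 uninduced lines, 0 of 8 tested genes were called in either direction by this rule, where 1.26% of 12449 genes were called higher in the shG9a line and 2.06% were called lower, and OAS1 was the 1 gene with an unadjusted exact binomial p below 0.05 (p = 0.0198).

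The median log2 fold change of the 9 genes was 0.41 with SP2509, 0.17 with UNC0642 and 0.75 for the combination, compared with -0.21, -0.01 and -0.02 for all genes tested. With Dox it was 0.68 in the shLSD1 line and 0.35 in the shG9a line, compared with 0.13 and 0.18. The median of all genes thus lay above 0 in both induced lines, by more than 0.1, and 68.4% and 65.6% of all calls were in the higher direction. Once the median ratio of genes reaching 5 FPKM in both libraries was set to no change, these shares were 52.6% and 51.0%. Centring left 2 of the 8 tested genes called higher in the shG9a line, IFIT3 and OAS3, where 2676 of all 13080 genes tested were called higher. The count after centring was thus near that of all genes. TMM scaling (which uses a trimmed mean of log ratios) left 1, IFIT3, and the share of all genes was not counted under it.

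**Figure D2:**
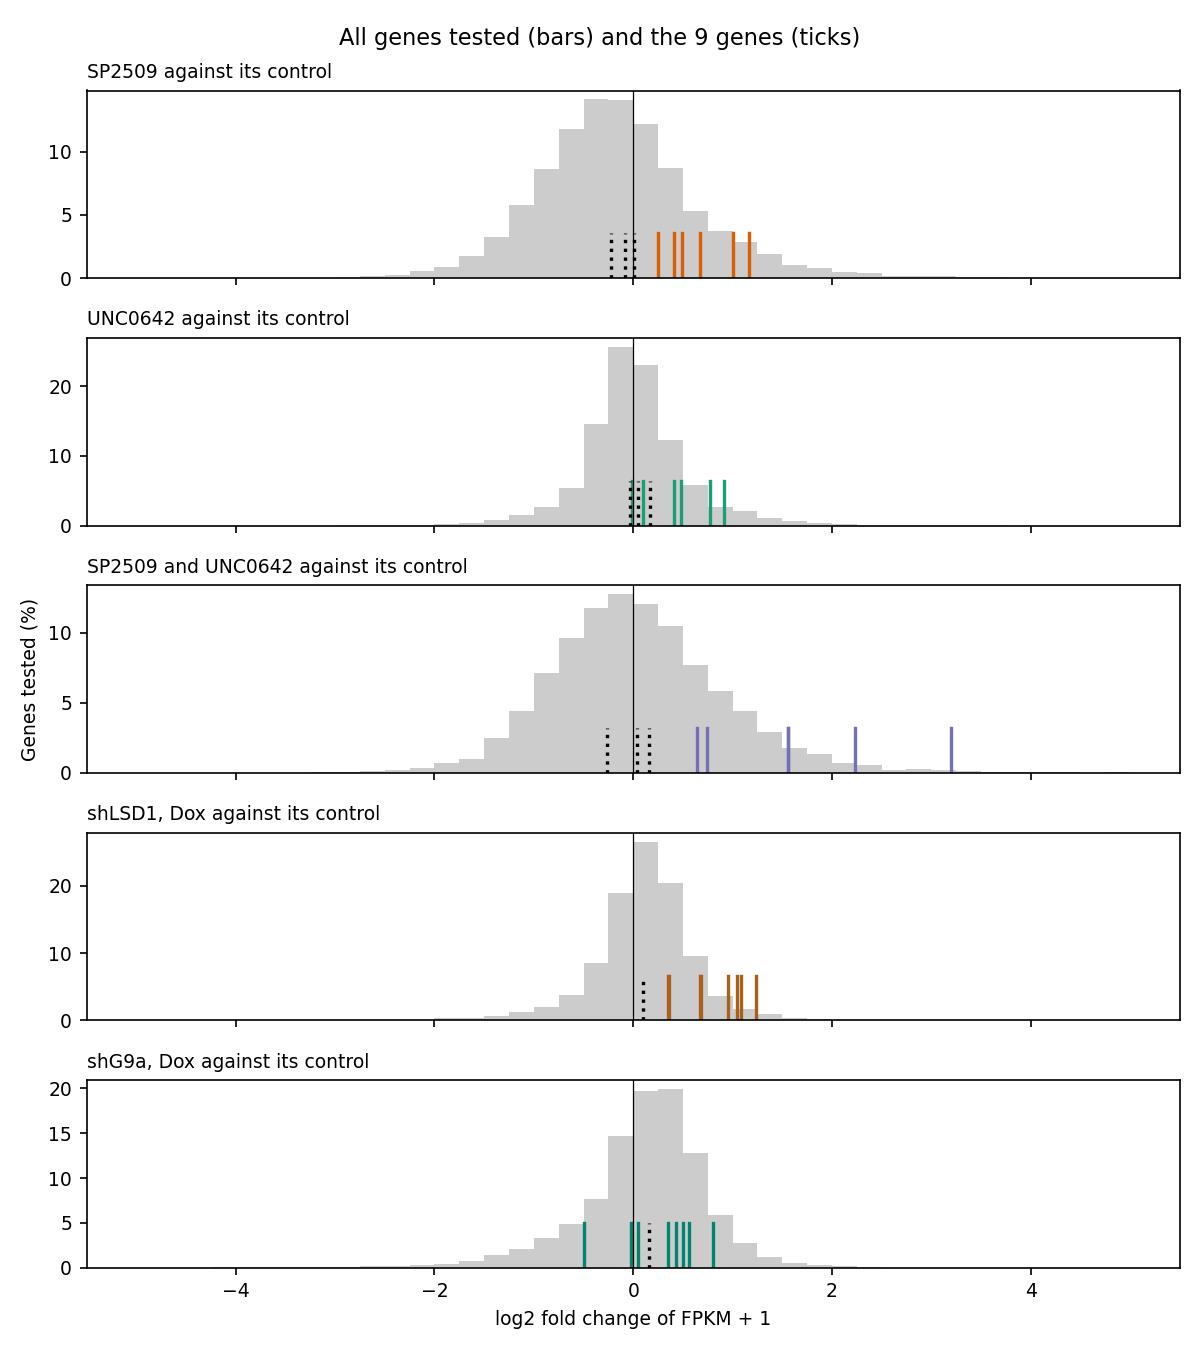
Distribution of log2 fold changes of FPKM + 1 (x axis) over all genes tested, as a percentage of them (grey bars), in each of the 5 comparisons with a control. Vertical ticks mark the 9 genes, coloured where the gene was tested and dotted black where it had less than 1 FPKM in both libraries. With the combination, the tested ticks lie between 0.64 and 3.20, and in the shG9a line they lie between -0.49 and 0.81.

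The IFIT genes encode proteins that bind foreign RNA, IFIT1 at the uncapped or incompletely capped end, while IFIT2 and IFIT3 bind to IFIT1 or to each other in complexes. They are neighbours on chromosome 10 (GRCh38), where IFIT1 (ENSG00000185745) spans 89392546 to 89406486, IFIT2 (ENSG00000119922) spans 89283694 to 89309276, and IFIT3 (ENSG00000119917) spans 89327894 to 89340971, all on the plus strand. LIPA, a lysosomal lipase gene, is annotated across all 3 on the other strand. The sources do not say if strand was used in counting, so reads of LIPA and of the IFIT genes may not be fully separated. LIPA had 19.9 FPKM in vehicle, 19.6 in SP2509, 31.6 in UNC0642 and 22.6 in the combination. Without and with Dox it had 23.0 and 26.5 FPKM in shLSD1 cells, and 22.2 and 13.5 FPKM in shG9a cells. Its part in the IFIT values was not tested.

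IFIT3 was the most abundant of the 3. It had 5.44 FPKM in vehicle, 9.30 in SP2509, 5.40 in UNC0642 and 9.81 in the combination. The libraries thus fell into a low pair, vehicle and UNC0642, and a high pair, SP2509 and the combination, and within each pair the interval of the ratio included 1. The ratio to vehicle was 1.71 with SP2509 (1.45 to 2.02), 0.992 with UNC0642 (0.826 to 1.19) and 1.80 for the combination (1.53 to 2.13). With Dox, IFIT3 rose in shLSD1 cells from 7.83 to 17.8 FPKM, a ratio of 2.27 (2.01 to 2.58). In shG9a cells it rose from 6.89 to 12.8 FPKM, a ratio of 1.86 (1.62 to 2.14). Both induced libraries were above both uninduced libraries.

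IFIT2 differed in direction between the induced lines. It rose from 4.83 to 10.3 FPKM with Dox in the shLSD1 line (352 and 738 reads), a ratio of 2.13 (1.87 to 2.42). In the shG9a line it fell from 5.22 to 3.42 FPKM (354 and 243 reads), a ratio of 0.656 (0.555 to 0.774). The uninduced lines, at 4.83 and 5.22 FPKM, were not separated by counting error (ratio 1.08, 0.929 to 1.25). Among the inhibitor libraries IFIT2 had 1.77 FPKM in vehicle, 2.70 in SP2509, 1.96 in UNC0642 and 3.32 in the combination. Its ratio to vehicle was 1.52 with SP2509 (1.20 to 1.93), 1.11 with UNC0642 (0.859 to 1.43) and 1.87 for the combination (1.49 to 2.36). IFIT2 was thus called higher with SP2509, with the combination and in the induced shLSD1 line, was not called with UNC0642, and was called lower in the induced shG9a line. AL353751.1, a noncoding gene that overlaps IFIT2 on the same strand, did not exceed 0.117 FPKM.

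IFIT1 was low throughout. It had 0.471 FPKM in vehicle, 0.390 in SP2509, 0.521 in UNC0642 and 0.642 in the combination, on 32 to 50 reads, and was not tested in that arm. In the shLSD1 line it had 0.855 FPKM without and 1.36 with Dox, and in the shG9a line 1.05 and 1.01. The ratio in the shLSD1 line, 1.59 (1.17 to 2.18), lay above 1 by counting error, but the log2 fold change of FPKM + 1 was 0.35 and did not reach the fold threshold. No neighbouring libraries in the order of IFIT1 levels were separated by counting error in either arm.

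OAS1, OAS2 and OAS3 encode oligoadenylate synthetases, which sense double-stranded RNA and make a short-lived messenger that activates the ribonuclease RNase L. They are adjacent on the plus strand of chromosome 12, OAS1 (ENSG00000089127) from 112906777 to 112933222, OAS3 (ENSG00000111331) from 112938352 to 112973249, and OAS2 (ENSG00000111335) from 112978395 to 113011723, and no other listed gene overlaps them. Their levels and responses nonetheless differed. OAS3 was the most abundant in every library.

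OAS3 had 10.3 FPKM in vehicle, 14.9 in SP2509, 18.3 in UNC0642 and 32.2 in the combination, on 1332 to 4482 reads. All neighbours in this order were separated by counting error. The ratio to vehicle was 1.45 with SP2509 (1.35 to 1.55), 1.78 with UNC0642 (1.67 to 1.90) and 3.12 for the combination (2.94 to 3.32). With Dox, OAS3 rose in shLSD1 cells from 6.45 to 10.9 FPKM (ratio 1.69, 1.56 to 1.83) and in shG9a cells from 6.67 to 10.3 FPKM (ratio 1.54, 1.42 to 1.68). The induced libraries were not separated from each other (ratio 1.06, 0.985 to 1.14), nor were the uninduced ones (ratio 1.03, 0.943 to 1.13).

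OAS1 had 1.19 FPKM in vehicle, 1.6 in SP2509, 1.91 in UNC0642 and 5.42 in the combination. The combination stood apart from the other 3 libraries, at a ratio to vehicle of 4.57 (3.64 to 5.78). With UNC0642 the ratio was 1.61 (1.24 to 2.10). The ratio with SP2509, 1.35 (1.03 to 1.77), did not reach the fold threshold on FPKM + 1, and was called higher only under TMM scaling (log2 fold change 0.53). SP2509 and UNC0642 were not separated from each other (ratio of UNC0642 to SP2509 1.19, 0.948 to 1.5). With Dox, OAS1 rose in shLSD1 cells from 3.20 to 5.74 FPKM (ratio 1.79, 1.55 to 2.08). In the shG9a line it had 2.58 FPKM without and 3.57 with Dox, a ratio of 1.39 (1.16 to 1.66), which was not called either.

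OAS2 followed another order. It had 0.703 FPKM in vehicle, 0.457 in SP2509, 0.910 in UNC0642 and 0.416 in the combination, on 44 to 102 reads, so it was not tested in the inhibitor arm. The ratio to vehicle was 0.650 with SP2509 (0.444 to 0.947) and 0.592 with the combination (0.396 to 0.876), and both libraries with SP2509 were below both without it. Under TMM scaling the log2 fold change of FPKM + 1 for SP2509 alone was 0.052. There the whole shift of -0.277 was subtracted from -0.225, a value that the added 1 FPKM had shrunk. The sign under TMM scaling thus does not show that the ratio of OAS2 turned. In the knockdown arm, shLSD1 cells had 1.10 FPKM of OAS2 without and 3.94 with Dox (122 and 432 reads), a ratio of 3.59 (2.93 to 4.43). This was the highest ratio of the 9 genes in either Dox line. In shG9a cells it rose from 0.840 to 1.59 FPKM (87 and 173 reads), a ratio of 1.90 (1.46 to 2.49). The call in shG9a cells was lost under centring and TMM scaling.

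ISG15 encodes a ubiquitin-like protein that is attached to other proteins and is also secreted. The gene (ENSG00000187608) is annotated on the plus strand of chromosome 1 from 1001138 to 1014541 in the inhibitor table. ISG15 had 3.12 FPKM in vehicle, 8.23 in SP2509, 6.76 in UNC0642 and 36.9 in the combination, on 46, 138, 114 and 587 reads. The ratio to vehicle was 2.64 with SP2509 (1.88 to 3.77), 2.17 with UNC0642 (1.53 to 3.13) and 11.8 for the combination (8.76 to 16.4). The last was the highest ratio of the 9 genes in any of the 5 comparisons. In the shLSD1 line ISG15 had 16.6 FPKM without and 21.5 with Dox, a ratio of 1.3 (1.10 to 1.52), and in the shG9a line 17.7 and 18.3, a ratio of 1.03 (0.876 to 1.22). Neither was called. An antisense gene overlaps ISG15, and it had at most 1.72 FPKM in the knockdown arm. In the inhibitor arm it had 0.678 FPKM in vehicle, 0 in SP2509, 0.356 in UNC0642 and 1.13 in the combination. A processed pseudogene also lies within its span on the other strand (AL645608.4 in the inhibitor table), with 0 FPKM in vehicle, 0.365 in SP2509, 0.363 in UNC0642 and 1.15 in the combination. Within the inhibitor arm, the antisense gene and the pseudogene were thus both highest in the combination library, where ISG15 was highest. Their part in the ISG15 values was not tested.

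IFI6 encodes a small membrane protein with antiviral and antiapoptotic roles. The gene (ENSG00000126709) lies on the minus strand of chromosome 1 from 27666061 to 27672218, and AL445490.1, which overlaps it on the other strand, had at most 0.210 FPKM. It was the most abundant of the 9 genes in all libraries except that with UNC0642, where OAS3 had 18.3 FPKM and IFI6 had 17.4. IFI6 had 12.3 FPKM with vehicle, 25.6 with SP2509 and 61.4 with the combination. Its ratio to vehicle was 2.09 with SP2509 (1.74 to 2.52), 1.42 with UNC0642 (1.17 to 1.74) and 5.01 for the combination (4.24 to 5.95), and all neighbours in the order of the 4 libraries were separated by counting error. With Dox it rose in shLSD1 cells from 27.5 to 57.9 FPKM (ratio 2.11, 1.87 to 2.37) and in shG9a cells from 26.4 to 35.9 FPKM (ratio 1.36, 1.19 to 1.56).

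MX1 encodes a dynamin-like GTPase that blocks replication of influenza and other viruses. The gene (ENSG00000157601) spans 41420304 to 41459214 on the plus strand of chromosome 21. MX1 had 0.185 FPKM in vehicle, 0.189 in SP2509, 0.162 in UNC0642 and 0.220 in the combination, on 25 to 32 reads. In the shLSD1 line it had 0.255 FPKM without and 0.345 with Dox, and in the shG9a line 0.232 and 0.375. MX1 remained below 1 FPKM in all 8 libraries and was not tested. Of its 5 ratios, that in the shG9a line, 1.62 (1.04 to 2.57), had an interval that did not include 1. Under TMM scaling the log2 fold change of FPKM + 1 there was -0.074. The whole shift of 0.233 was subtracted from 0.159, a value that the added 1 FPKM had shrunk. It thus does not show that the ratio of MX1 turned.

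**Figure D3:**
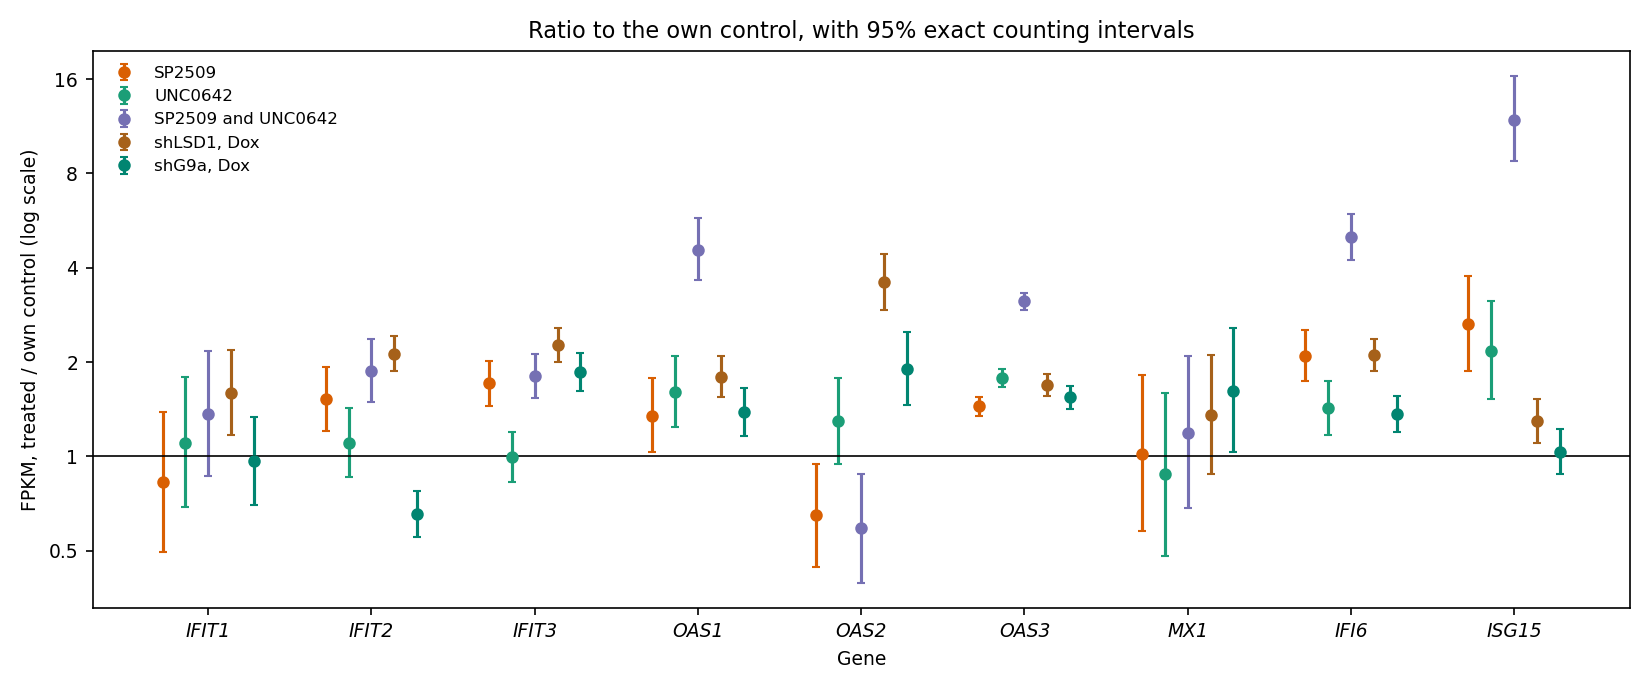
Ratio of FPKM in each treated library to that in its own control (y axis, log scale), with bars for the 95% exact counting interval and a line at a ratio of 1. The combination stands above the other libraries for ISG15 (11.8), IFI6 (5.01), OAS1 (4.57) and OAS3 (3.12), and IFIT2 lies below 1 in the shG9a line (0.656) and above 1 in the shLSD1 line (2.13).

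Adding the second inhibitor was examined by setting the combination beside each single inhibitor. The combination library had the highest level of the 4 inhibitor libraries for 8 of the 9 genes, all but OAS2. For 5 genes, IFIT2, ISG15, OAS1, OAS3 and IFI6, the interval of the ratio lay above 1 against both single inhibitors. ISG15 was 4.49-fold higher with the combination than with SP2509 (3.72 to 5.44) and 5.46-fold higher than with UNC0642 (4.46 to 6.73). The ratios of OAS1 were 3.39 (2.80 to 4.12) and 2.84 (2.38 to 3.41), those of IFI6 were 2.39 (2.12 to 2.70) and 3.52 (3.07 to 4.04), and those of OAS3 were 2.16 (2.05 to 2.27) and 1.75 (1.67 to 1.84). IFIT3 did not differ from SP2509 beyond counting error (ratio 1.05, 0.922 to 1.21). OAS2 was lower with the combination than with UNC0642 (ratio 0.457, 0.313 to 0.657).

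If the single ratios multiplied, ISG15 would have had 17.9 FPKM with the combination, and it had 36.9, which is 2.07 times that product. The measured level was 2.11 times the product for OAS1, 1.68 times for IFI6 and 1.21 times for OAS3. IFIT2 and IFIT3 were close to it, at 1.11 and 1.06 times. OAS2 was below it, at 0.703 times. IFIT1 and MX1, at 1.49 and 1.33 times, rest on 25 to 50 reads per library. These are single values with no test, since no condition was replicated.

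The wider pathway was described with lists of interferon ligands, receptors, signalling genes, feedback inhibitors and other target genes. Ligand transcripts were scarce. IFNB1, the type I interferon made by most cell types, had at most 0.328 FPKM in any library. IFNA1 and IFNK, listed in the inhibitor table, and IFNL1 had at most 0.0648, 0.0520 and 0.423 FPKM, and IFNL2 and IFNL3, listed in the knockdown table, had at most 0.841 and 0.438 FPKM in uninduced lines and 0 with Dox. IFNE, an epithelial type I interferon, was called higher with UNC0642 (0.303 to 1.52 FPKM, 7 and 40 reads) and in the induced shG9a line (0.492 to 1.06 FPKM, 12 and 27 reads). It reached the minimum of 1 FPKM only in the treated library of each, and the call in the shG9a line was lost under centring and TMM scaling. The other 3 comparisons had at most 0.813 FPKM of IFNE and did not test it.

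Of the 6 receptor genes, the type I receptor subunit IFNAR1 was called higher with the combination (7.65 to 10.5 FPKM, not called under centring), as was the type III receptor subunit IFNLR1 (4.05 to 7.02 FPKM). IFNAR2, the partner of IFNAR1, was called higher with SP2509 (1.47 to 2.30 FPKM) and UNC0642 (2.73 FPKM) and had 1.57 FPKM with the combination. IL10RB, the partner of IFNLR1, had 1.81 to 2.95 FPKM in the inhibitor arm and was not called without rescaling. Under centring and TMM scaling, IL10RB and IFNLR1 were called higher with SP2509, and IFNAR1 was under TMM scaling. In the shG9a line, IFNLR1 and IFNAR1 were called lower under both scalings, and IFNGR1 under TMM scaling. In the knockdown table IFNAR2 and IL10RB had at most 0.0732 and 0.173 FPKM, and the gene models of the tables differ. IFNGR1, which binds interferon gamma, fell from 162 FPKM with vehicle to 72.5 with UNC0642 and 29.0 with the combination, and rose from 61.9 to 131 FPKM with Dox in the shLSD1 line. IFNGR2, the other subunit of that receptor, was called higher with SP2509 (4.42 to 8.56 FPKM) and UNC0642 (6.29 FPKM).

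Among the signalling genes, 12 of 13 were listed. With SP2509, 6 of 11 tested were called higher and 0 lower, with UNC0642 1 of 10 was higher and 2 lower, and with the combination 3 of 11 were higher and 1 lower. With Dox, 6 of 11 were higher and 1 lower in the shLSD1 line, and 6 of 10 were higher and 1 lower in the shG9a line. The shares of all genes called higher were 18.0%, 15.6%, 28.9%, 22.4% and 29.9% in the same order, and those called lower were 37.3%, 13.8%, 28.9%, 10.3% and 15.7%. The higher counts with UNC0642 and with the combination were thus near or below those of all genes. After centring, the counts in the shLSD1 and shG9a lines were 4 higher and 2 lower, and 4 higher and 1 lower. With TMM scaling they were 4 higher and 2 lower, and 3 higher and 2 lower. Of all genes in these lines, centring left 1975 of 12970 and 2676 of 13080 called higher, and 1783 and 2576 called lower. STAT2 rose from 5.72 to 8.88 FPKM with the combination, from 8.04 to 11.1 in the shLSD1 line and from 8.76 to 13.4 in the shG9a line. Its call in the shLSD1 line was lost under both scalings, and that in the shG9a line under TMM scaling. Other calls were gained by rescaling. With SP2509, STAT2 was called higher under both scalings and IRF1 under TMM scaling, and in the shLSD1 line JAK1 was called lower under both. IRF9, the DNA-binding partner of STAT2, had 0.168 to 0.370 FPKM in the inhibitor arm and 0.398 to 0.768 FPKM in the knockdown arm, and was not tested.

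The kinase TYK2 had 8.34 FPKM without and 11.9 with Dox in the shLSD1 line, and 9.04 and 12.3 in the shG9a line, and both were called higher only without rescaling, since centring and TMM scaling each ended the call. JAK1 rose with SP2509 (40.8 to 61.3 FPKM), and fell with UNC0642 (31.0 FPKM), with the combination (27.7 FPKM) and in the induced shG9a line (42.0 to 24.2 FPKM). JAK2 rose with SP2509, from 1.004 to 1.98 FPKM. STAT3, used mainly by cytokines such as interleukin 6, rose with SP2509 (35.7 to 67.7 FPKM) and in the induced shLSD1 line (30.1 to 48.6 FPKM). Of the interferon regulatory factors, IRF7, itself an interferon-stimulated gene, rose from 0.656 FPKM with vehicle to 1.52 with SP2509 and 2.39 with the combination. Being below 1 FPKM with vehicle, IRF7 could be called there only as higher. IRF1, an activator induced by interferon gamma, fell from 6.39 to 2.72 FPKM with UNC0642, and rose from 9.41 to 16.4 in the shLSD1 line and from 8.19 to 14.4 in the shG9a line. IRF2, often a repressor of the same sites, rose with SP2509 (11.3 to 19.99 FPKM), in the shLSD1 line (13.6 to 20.2) and in the shG9a line (13.1 to 21.3). IRF3, a sensor-activated factor, had 31.0 and 42.3 FPKM without and with Dox in the shG9a line, and that call too was lost under both scalings.

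All 7 feedback inhibitors were tested in every comparison, and 3, 1, 3, 1 and 2 were called higher and 1, 1, 1, 0 and 2 lower with SP2509, UNC0642, the combination, shLSD1 and shG9a. Of all genes, 37.3%, 13.8%, 28.9%, 10.3% and 15.7% were called lower in the same order. With UNC0642 and in both induced lines, the higher counts were about or below the shares of all genes given above (15.6%, 22.4% and 29.9%). SOCS3, which restrains STAT signalling, was the most raised of them with each inhibitor, from 3.71 FPKM with vehicle to 22.6 with SP2509, 13.6 with UNC0642 and 13.7 for the combination, and in the induced shLSD1 line it rose from 22.2 to 33.4 FPKM. In the induced shG9a line SOCS3 fell from 24.7 to 15.1 FPKM. SOCS1, an inhibitor of JAK kinases, fell from 4.38 FPKM to 2.34 with SP2509 and 2.28 with UNC0642, and from 4.75 to 2.15 in the induced shG9a line. PTPN2, a phosphatase of JAK1, fell from 7.62 to 5.20 FPKM with the combination. TRIM21 rose from 5.55 to 9.19 FPKM in the induced shG9a line.

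A further 50 type I interferon-stimulated genes were taken as a wider list. With Dox, 31 of 43 tested were higher and 1 lower in the shLSD1 line, and 28 of 43 were higher and 4 lower in the shG9a line. With SP2509 15 of 42 were higher and 6 lower, with UNC0642 8 of 40 were higher and 5 lower, and with the combination 14 of 44 were higher and 14 lower. Of all genes, 22.4% were called higher and 10.3% lower in the shLSD1 line, and 29.9% and 15.7% in the shG9a line. With SP2509 these shares were 18.0% and 37.3%, and with UNC0642 15.6% and 13.8%, so the counts with UNC0642 were near those of all genes. The median log2 fold change of the list was 0.49 in the shLSD1 line, 0.48 in the shG9a line, 0.12 with SP2509, 0.01 with UNC0642 and 0.01 for the combination, beside the medians of all genes given above. After centring, 25 were higher and 1 lower in the shLSD1 line, 21 and 5 in the shG9a line, and 17 and 5 with SP2509. Of all genes, 1975 of 12970, 2676 of 13080 and 2805 of 13342 were then called higher, in the same order. Those called lower were 1783, 2576 and 4378. With TMM scaling the higher counts were 23 in the shLSD1 line, 18 in the shG9a line and 21 with SP2509, and no share of all genes was counted under it. With the combination, where 28.9% of all genes were called higher and 28.9% lower, the wider list thus had as many genes lower as higher.

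Within this wider list, ISG20, an exonuclease with antiviral activity, rose most with the combination, from 0.269 to 9.74 FPKM (31 and 1210 reads), while TRIM14, an adaptor of antiviral signalling, fell most, from 14.0 to 2.74 FPKM. ISG20 and the gene OASL were below 1 FPKM with vehicle, so against it they could be called only as higher. OASL, a relative of the OAS genes that lacks synthetase activity, rose most with both single inhibitors, from 0.654 FPKM with vehicle to 4.25 with SP2509 and 2.23 with UNC0642. The largest decreases there were of SAMHD1, a nucleotide hydrolase, with SP2509 (5.65 to 1.58 FPKM), and of TNFSF10, the death ligand TRAIL, with UNC0642 (6.97 to 2.22 FPKM). TNFSF10 was the most raised in the shLSD1 line, from 5.53 to 27.9 FPKM, and IFITM1, which blocks viral entry, was the most raised in the shG9a line, from 10.5 to 45.2 FPKM. LAMP3, a lysosomal membrane protein, fell most in both lines, from 8.89 to 4.12 and from 8.97 to 1.09 FPKM.

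Genes that respond preferentially to interferon gamma were called higher in 7 of 12 tested with SP2509, 3 of 9 with UNC0642, 4 of 11 with the combination, 10 of 13 in the shLSD1 line and 7 of 12 in the shG9a line, and lower in 1, 1, 3, 1 and 4. Of all genes, 18.0%, 15.6%, 28.9%, 22.4% and 29.9% were called higher, and the higher count with the combination was close to that share. The shares of all genes called lower were 37.3%, 13.8%, 28.9%, 10.3% and 15.7%. In the shG9a line the median log2 fold change of the list was 0.16, and with TMM scaling it was -0.07 with 5 genes called higher. GBP1, an interferon-induced GTPase, rose most with SP2509, from 6.18 to 58.5 FPKM, and fell most in the shLSD1 line, from 10.8 to 5.72 FPKM. SOD2, the mitochondrial superoxide dismutase, rose most with UNC0642 (26.5 to 54.0 FPKM) and in the shLSD1 line (12.8 to 44.1 FPKM). CD274, which encodes PD-L1, rose most with the combination, from 0.155 to 2.41 FPKM (10 and 167 reads), and GBP4, another such GTPase, rose most in the shG9a line, from 1.53 to 5.45 FPKM. Being below 1 FPKM with vehicle, CD274 could be called there only as higher. WARS, a tRNA synthetase, fell most with SP2509 (47.5 to 9.78 FPKM), with UNC0642 (15.9 FPKM) and in the shG9a line (80.2 to 17.3 FPKM), and the immunoproteasome subunit PSMB8 fell most with the combination (29.1 to 13.6 FPKM).

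**Figure D4:**
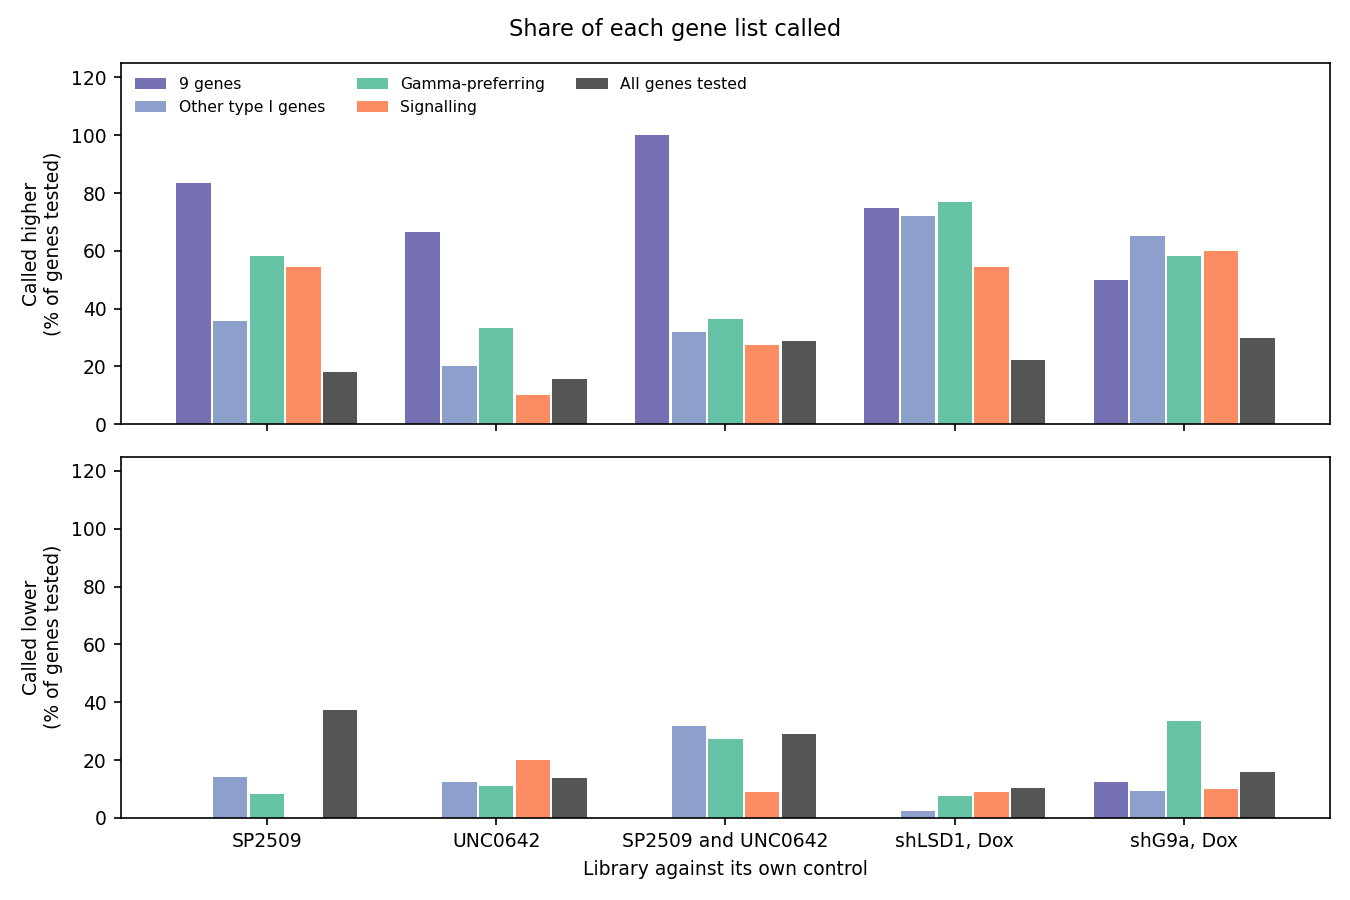
Percentage of the tested genes of each list called higher (top) and lower (bottom) in each library against its own control, for the 9 genes, the other type I interferon-stimulated genes, the gamma-preferring genes, the signalling genes, and all genes tested (dark bars). With the combination 6 of 6 of the 9 genes that were tested and 14 of 44 of the other type I genes were called higher, and in the shLSD1 line 6 of 8 and 31 of 43 were.

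The genes whose pattern was most like that of the 9 were sought among 12232 genes with at least 1 FPKM in at least 4 libraries. Likeness was Pearson's r over the 8 libraries with the mean log2 level of the 9 genes, each centred within its own table, and it is given as a description, since libraries of a table share their control and their normalisation. The 10 highest were COA4 (r = 0.983), ZFAND6 (0.980), LINC00944 (0.979), CRIPT (0.976), BCL6 (0.974), AEN (0.969), ZNF367 (0.968), DAZAP1 (0.965), DVL3 (0.964) and SNHG12 (0.964). None of them was in another of the interferon lists. BCL6, a transcriptional repressor, had 4.04 FPKM in vehicle, 7.54 in SP2509, 5.52 in UNC0642 and 13.8 in the combination. Among the 9 genes, r with the mean of the other 8 was highest for IFI6 (0.968) and OAS1 (0.952), followed by OAS3 (0.894), IFIT3 (0.778), ISG15 (0.758), IFIT1 (0.745), IFIT2 (0.677) and MX1 (0.598), and lowest for OAS2 (0.298).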

How the data were processed

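The authors mapped paired-end reads to GRCh38 and deposited FPKM per gene in 2 tables, for the inhibitors (31582 genes) and the knockdowns (28942 genes). The aligner, the counting tool and the use of strand are not given in the sources used here. Files contain 1 library per condition, 8 in all, and groups were taken from the labels. The 9 genes and all gene lists were chosen with earlier results of these data known.

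Library totals were estimated from the FPKM steps of genes with 1 exon. Each gene then received the smallest length giving whole reads in all 4 libraries of its table, or a multiple of it, up to 4 times, that matched the length in GENCODE release 44 or the other table, up to 1.3 times the reference. Summed over genes, these reads made 99.6% to 99.8% of the totals. The longest length searched, 200000 bases, was set after the data were seen, and 1 gene per table had no whole reads. On simulated data, 4 of 4 totals per table and the reads of 97.8% of 23708 genes (inhibitor table) and 97.7% of 23205 genes (knockdown table) were recovered exactly, 199 of 200 changed genes were called in each table, and 96 of 12659 and 62 of 12268 unchanged genes were called.

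All genes were tested as described above, with a pseudocount of 1 FPKM. Named genes were the 9, the 2 targeted genes, every listed ligand, receptor and signalling gene, in each other list the called gene with the largest change in each direction, and the 10 genes of most similar pattern. Cell type markers and overlapping genes were named as checks. Some genes of these lists are counted but not reported here by name. Promoter stretches shown were chosen after the matches were seen, with matches up to 60 bases apart joined and 20 bases kept on each side. Alternatives were a pseudocount of 0.1, no filter or 5 FPKM, a fold of 2, Benjamini-Hochberg adjustment, centring, TMM scaling, the fewest reads per gene and, for knockdowns, the mean of the uninduced libraries as control. Scaling of the other lists was added after the data were seen. Python 3.11.15, numpy 2.4.6, pandas 2.3.3, scipy 1.17.1 and numba 0.67.0 were used.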

Additional observations from a re-analysis of the deposited data

Results flagged for a closer look

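IFIT2 was singled out because its 2 knockdown lines moved in opposite directions with Dox. Its log2 fold change of FPKM + 1 was 0.95 in the shLSD1 line and -0.49 in the shG9a line, a difference of 1.44. The difference was not tested, since each line has 1 library with and 1 without Dox, and it compares those 4 libraries only.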

How the results depend on the processing

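No paired analysis was possible because each condition has 1 library, and for the same reason no library could be left out. Of 100 counts of called genes under the alternatives, 93 stayed within 1.5 times the count reported and 7 did not, and all 18 medians of the 9 genes under another scaling or pseudocount kept their direction. At a fold of 2, 2 genes were called higher with SP2509, 0 with UNC0642, 3 in the shLSD1 line, and 0 higher and 0 lower in the shG9a line. With the combination, ISG15, IFI6, OAS1 and OAS3 remained above this fold, at log2 fold changes of 3.20, 2.23, 1.55 and 1.55. The share of all genes called at a fold of 2 was not counted. In the shG9a line, 2 of 8 tested genes were called higher with centring, where 2676 of all 13080 were, and 1 with TMM scaling. Of 450 values of single genes, 410 kept their direction and call, 27 lost the call, 4 gained it and 9 changed sign. The changes of sign were IFIT1 with SP2509 (log2 fold change 0.013 centred, 0.20 with TMM), OAS2 with SP2509 (0.052 with TMM), MX1 in the shLSD1 line (-0.011 centred, -0.049 with TMM), ISG15 in the shG9a line (-0.10 centred, -0.19 with TMM), MX1 in the shG9a line (-0.074 with TMM) and IFIT1 in the shG9a line (0.045 with the mean of the uninduced libraries as control). None of these 9 was a call. Scaling shifts were subtracted whole from folds of FPKM + 1, which are shrunk for genes with little expression. The signs under scaling for IFIT1, OAS2 and MX1 thus do not show that their FPKM ratios turned. Depth limits MX1 (25 to 56 reads) and IFIT1 (32 to 110 reads) most.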

Other observations

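The IFITM genes, which encode membrane proteins that block entry of viruses, moved in opposite directions in the Dox lines and with the combination. IFITM2 and IFITM3 were chosen after their values were seen. With Dox, IFITM2 rose in shLSD1 cells from 11.8 to 23.7 FPKM and in shG9a cells from 10.9 to 29.8 FPKM, and fell from 8.61 FPKM with vehicle to 1.69 with the combination. IFITM3 rose in shLSD1 cells from 191 to 347 FPKM and in shG9a cells from 183 to 276 FPKM (not called with TMM scaling), and fell from 110 to 44.6 FPKM with the combination. IFITM1 rose in shLSD1 cells from 10.2 to 21.0 FPKM and fell from 13.2 to 6.75 FPKM with the combination. With SP2509 or UNC0642 alone, none of the 3 was called. The IFITM genes are close copies of each other, and their values are uncertain to that extent.

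IFI44 and RSAD2, also chosen after their values were seen, were also called higher with the combination. In the wider list of type I genes, 14 of 44 were called higher there and 14 lower, beside 28.9% of all genes in each direction. IFI44 rose from 6.27 FPKM in vehicle to 10.8 in SP2509, 9.55 in UNC0642 and 21.5 in the combination. RSAD2, which encodes the antiviral enzyme viperin, was listed at 0 FPKM with vehicle and at 1.79 FPKM with the combination, and had at most 0.0116 FPKM with either inhibitor alone. Of vehicle and the combination, only the latter reached the minimum of 1 FPKM for RSAD2, so higher was the only call open to it.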
